A study of Mus musculus with 6 samples.

Results

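The 10 genes described here belong to the machinery by which cells sense and answer mechanical load: the stretch-activated channels Piezo1 and Piezo2, the transcriptional co-activators Yap1 and Wwtr1 (TAZ), their DNA-binding partner Tead1, and the target genes Ctgf, Cyr61, Ankrd1, Amotl2 and Lats2. They were chosen by symbol from the 46095 gene symbols of the deposited count table, and all 10 were present and had enough counts to be tested. By the submitters' description, libraries came from primary cells of the nucleus pulposus, the soft core of the intervertebral disc. The mice were 8 weeks of age, and the cells were grown to passage 2 with fetal bovine serum. The groups were wild type, Chsy3 heterozygous and Chsy3 knockout (labelled Chsy3KO), with 2 libraries each and with no other allele or treatment named. Every library carries the label male. Chsy3 encodes a chondroitin sulfate synthase, and the sources used here do not give which exons were altered, the strain, or whether libraries of the same genotype stem from different animals or cultures. P-values therefore measure only the spread between these libraries, which may be technical. The series title speaks of knockdown, while the labels give genotypes.

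Piezo proteins are large membrane channels that open when the membrane is stretched and let calcium and other cations in. YAP and TAZ move into the nucleus when cells spread on a stiff matrix and pull on it, and leave it when the Hippo kinases LATS1 and LATS2 phosphorylate them. They do not bind DNA themselves but are held on it by TEAD factors, which recognise a short element known as M-CAT. Disc cells live under constant compression, and nucleus pulposus cells lie in a gel of proteoglycan whose charge comes largely from chondroitin sulfate.

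The stretches around the transcription start of 4 target genes are shown because these genes, all known to be bound by YAP/TAZ and TEAD in other cells, moved in different directions in the data that follow. Each runs from 250 bases before the start to 50 bases after it, on the strand of the gene, and comes from RefSeq on GRCm38.p6. Capitals mark every GGAATG or its reverse complement CATTCC, the core of the TEAD element, searched on both strands.
Cyr61 (chr3:145649936-145650235, minus strand): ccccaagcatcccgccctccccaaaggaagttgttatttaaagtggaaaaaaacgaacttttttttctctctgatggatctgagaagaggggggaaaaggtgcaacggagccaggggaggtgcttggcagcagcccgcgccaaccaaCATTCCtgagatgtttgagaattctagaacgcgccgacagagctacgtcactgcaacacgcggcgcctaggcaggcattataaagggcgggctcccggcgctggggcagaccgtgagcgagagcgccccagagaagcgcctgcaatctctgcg
Ankrd1 (chr19:36119795-36120094, minus strand): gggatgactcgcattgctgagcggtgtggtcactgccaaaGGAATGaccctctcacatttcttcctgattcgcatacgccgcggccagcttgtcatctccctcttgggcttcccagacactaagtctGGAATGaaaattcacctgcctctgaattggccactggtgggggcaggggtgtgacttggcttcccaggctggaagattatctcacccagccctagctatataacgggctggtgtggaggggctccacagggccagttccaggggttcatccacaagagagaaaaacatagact
Amotl2 (chr9:102717554-102717853, plus strand): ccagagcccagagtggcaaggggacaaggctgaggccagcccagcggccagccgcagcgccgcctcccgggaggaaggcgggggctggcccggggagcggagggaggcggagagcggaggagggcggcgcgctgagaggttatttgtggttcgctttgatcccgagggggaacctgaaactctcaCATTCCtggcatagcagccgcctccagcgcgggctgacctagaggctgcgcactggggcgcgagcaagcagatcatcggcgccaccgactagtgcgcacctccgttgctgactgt
Lats2 (chr14:57746074-57746373, minus strand): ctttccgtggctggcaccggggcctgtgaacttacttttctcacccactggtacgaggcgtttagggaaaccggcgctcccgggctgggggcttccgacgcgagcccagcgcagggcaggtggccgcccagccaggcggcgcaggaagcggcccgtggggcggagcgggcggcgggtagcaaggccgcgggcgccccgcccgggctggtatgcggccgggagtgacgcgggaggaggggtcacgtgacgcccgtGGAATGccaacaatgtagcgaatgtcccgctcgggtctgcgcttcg
The Ankrd1 stretch held 2 matches, which began 210 and 123 bases before the start. The match of Cyr61 began 103 bases and that of Amotl2 65 bases before it, and that of Lats2 lay just after it. The table held at least 1 stretch for 7 of the 10 genes, with Cyr61 listed under its newer symbol Ccn1, and 6 of the 7 had a match: these 4, Yap1 and Wwtr1. Of all 32851 such stretches, 14.7% had a match and 1.33% had 2 or more. These shares are per stretch, while the 6 of 7 are genes, counted if any of their stretches had a match. The 10 genes were also chosen by hand, so the count is not to be read as an enrichment. Lats2 has a further start in the table, whose stretch held no match, and neither did that of Piezo1. Ctgf, Tead1 and Piezo2 had no entry. A match is a description of the letters, and binding was not measured.

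Total counts per library ranged from 29622117 to 33899611, and a count of 0 allows a level of up to 3 counts, or 0.0880 to 0.104 CPM (counts per 1000000, with scaled library sizes), counting error only. Chsy3, the targeted gene, had 284 and 284 counts in wild type, 167 and 197 in heterozygous and 118 and 76 in knockout libraries. It fell by 1.53 ± 0.20 on the log2 scale in knockout (SE; adjusted p = 3.59e-08 by edgeR's quasi-likelihood test with Benjamini-Hochberg correction) and by 0.48 ± 0.19 in heterozygous libraries (edgeR, adjusted p = 0.0444; 0.0221 to 0.181 over the alternatives, of which 5 of 14 did not pass the threshold: DESeq2 and each fit that left out a wild-type or heterozygous library). The heterozygous libraries went against the male label: the Y-linked genes Ddx3y, Uty, Kdm5d and Eif2s3y had 0 counts in both, against 7.67 to 27.3 CPM in wild type, and Xist was at 1072 to 1080 CPM against 654 to 664 CPM. Wild-type and knockout libraries went against the label too, with reads of both Xist (651 to 654 CPM in knockout) and the Y-linked genes. Differences tied to sex and to genotype thus cannot be told apart in any comparison with heterozygous libraries. In a fit on the 4 wild-type and knockout libraries alone, all 10 genes passed in knockout against wild type, with Piezo2 at -3.88 log2. That fit contrasts the same libraries as the main one and is no check on sex. In wild type and knockout Ddx3y was at 24.4 and 31.0 CPM, Uty at 8.06 and 10.2 CPM and Eif2s3y at 15.9 and 20.7 CPM. Kdm5d was at 11.5 and 11.8 CPM and Xist at 659 and 652 CPM. Whether sex bears on the comparison of knockout with wild type was not tested. Of 11 nucleus pulposus and notochord markers, T, Shh and Noto were at 0 in all libraries and Acan, Krt8 and Krt18 at up to 0.243 CPM. Pax1 (20.1, 65.6 and 29.2 CPM in wild type, heterozygous and knockout), Foxf1 (24.5, 36.2 and 18.3 CPM), Krt19 (15.8, 0.759 and 2.68 CPM) and Cd24a (13.3, 6.42 and 10.2 CPM) were expressed. The whole list summed to 73.0 to 77.5, 106 to 115 and 62.4 to 62.6 CPM, while fibroblast and macrophage genes were abundant. Nucleus pulposus cells is the submitters' name for these cultures, and which cells they held was not tested.

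Piezo2 fell steeply in heterozygous and knockout libraries, the co-activators and Tead1 fell modestly, and the targets went different ways, with Ctgf and Cyr61 lower and Ankrd1 and Lats2 higher. In knockout against wild type all 10 genes passed the threshold of an adjusted p of 0.05, 8 lower and 2 higher. Among all 16061 tested genes 38.0% passed, 18.9% lower and 19.2% higher. Abundant genes pass more often: of the 10040 genes averaging 3 log2 CPM or more, as all 10 do, 49.1% passed. A change of at least 2-fold together with the threshold was seen for Piezo2 and Ankrd1, 2 of 10, against 6.82% of all genes, and of at least 1.5-fold for 5 of 10, against 13.1%. In heterozygous against wild type 9 of the 10 passed, 7 lower and 2 higher, and Amotl2 did not, against 38.9% of all genes (19.7% lower, 19.2% higher) and 49.6% of the abundant genes. Again Piezo2 and Ankrd1 were the 2 that changed at least 2-fold, against 7.11% of all genes, and 3 changed at least 1.5-fold, against 12.6%. Both comparisons use the same wild-type libraries. The median log2 fold change of the 10 genes was -0.49 in knockout and -0.18 in heterozygous libraries, against a median of -0.0031 and -0.0029 over all tested genes. The genes were chosen with earlier results of these data known, so these counts describe them and do not set them apart from other genes.

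**Figure D1:**
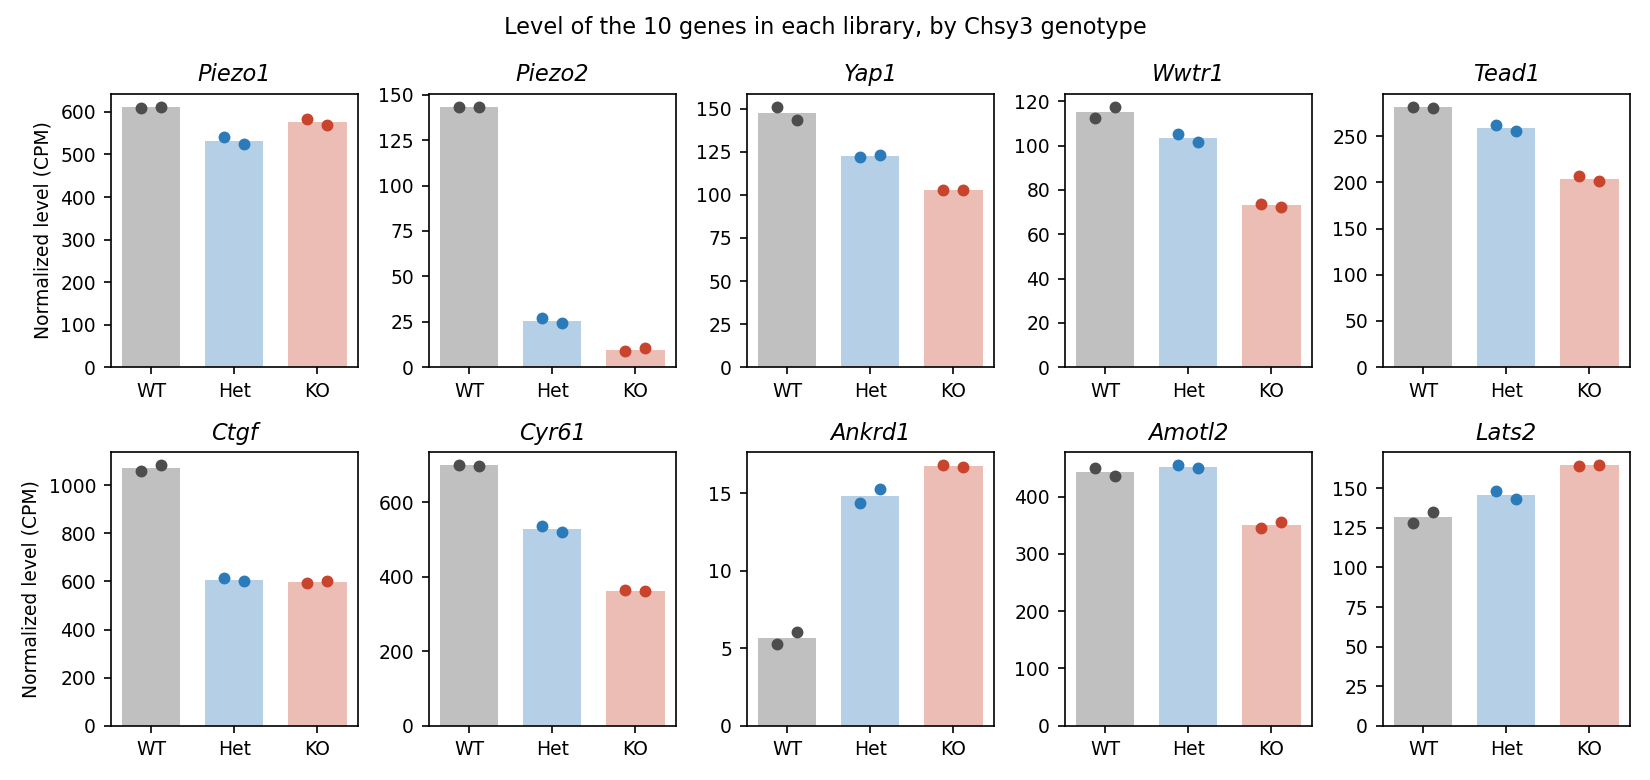
Normalized level in CPM (y axis, from 0, a scale of its own for each gene) of the 10 genes in the libraries of each Chsy3 genotype (WT, wild type; Het, heterozygous; KO, knockout). Points are the 2 libraries of a genotype and bars their mean; Piezo2 stands at 143 CPM in wild type and at 24.1 to 26.8 and 8.89 to 10.5 CPM in the other genotypes, while heterozygous and knockout libraries overlap for Ctgf.

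Piezo2 (chromosome 18, 63010213 to 63387183, minus strand, GRCm38), which encodes the channel of touch and proprioception in sensory neurons, was counted 4874 and 4877 times in wild type, 773 and 767 times in heterozygous and 293 and 359 times in knockout libraries. The corresponding levels were 143 and 144 CPM, 26.8 and 24.1 CPM, and 8.89 and 10.5 CPM. The 3 genotypes did not overlap, and the levels were graded, with heterozygous libraries at 17.8% and knockout libraries at 6.77% of the wild-type mean. Against wild type Piezo2 fell by 3.88 ± 0.07 on the log2 scale in knockout, or 14.8-fold (SE; edgeR, adjusted p = 6.71e-36), and by 2.50 ± 0.07 in heterozygous libraries, or 5.64-fold (edgeR, adjusted p = 8.77e-31). Knockout was also lower than heterozygous, with a log2 difference of -1.39 ± 0.08 (edgeR, adjusted p = 7.01e-18). Among the 16061 tested genes Piezo2 ranked 14 by p-value and 104 by size of the log2 fold change in knockout against wild type. In bulk libraries fewer cells that express a gene and less RNA per cell cannot be told apart, here and for every gene below.

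Piezo1 (chromosome 8, 122481698 to 122551329, minus strand), the relative of Piezo2 known from blood vessels and cartilage, moved little. Its level was 609.7 and 613 CPM in wild type, 541 and 525 CPM in heterozygous and 582 and 569 CPM in knockout libraries. The genotypes did not overlap, with heterozygous lowest, but the distances were small. Piezo1 fell by 0.09 ± 0.03 on the log2 scale in knockout (edgeR, adjusted p = 0.00478) and by 0.20 ± 0.03 in heterozygous libraries (edgeR, adjusted p = 1.4e-08). The knockout call rests on knockout library 2, without which the log2 fold change was -0.07 (edgeR, adjusted p = 0.0742; 0.00128 to 0.0742 over the 14 alternatives). Of its exon bases 24.6% overlap Ctu2 on the opposite strand, and since the strand setting of the counting is unknown here, reads of the overlap could belong to either gene. Ctu2 itself was at 14.1 to 24.9 CPM.

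Yap1 (chromosome 9, 7931999 to 8004596, minus strand) was at 151 and 143 CPM in wild type, 122 and 123 CPM in heterozygous and 103 and 103 CPM in knockout libraries. Its paralog Wwtr1, which encodes TAZ (chromosome 3, 57455649 to 57575910, minus strand), was at 112 and 118 CPM, 105 and 102 CPM, and 73.8 and 72.3 CPM in the same order. Tead1, the DNA-binding factor (chromosome 7, 112679318 to 112906807, plus strand), was at 282 and 281 CPM, 262 and 256 CPM, and 207 and 201 CPM. All 3 genes thus stood highest in wild type, lower in heterozygous and lowest in knockout libraries, with no overlap between genotypes. In knockout Yap1 fell to 69.7% of the wild-type mean (log2 -0.52 ± 0.04, SE; edgeR, adjusted p = 6.62e-14). Wwtr1 fell to 63.5% (log2 -0.66 ± 0.05, adjusted p = 1.71e-15) and Tead1 to 72.4% (log2 -0.47 ± 0.03, adjusted p = 3.76e-16). The heterozygous decreases were smaller, with a log2 fold change of -0.26 ± 0.04 for Yap1 (edgeR, adjusted p = 1.6e-06), -0.15 ± 0.05 for Wwtr1 (adjusted p = 0.00715) and -0.12 ± 0.03 for Tead1 (adjusted p = 0.00195). The heterozygous call for Wwtr1 was lost without wild-type library 2 (edgeR, adjusted p = 0.112) or heterozygous library 2 (adjusted p = 0.0757), the extremes over the 14 alternatives being 0.000699 and 0.112. Knockout was lower than heterozygous for all 3, with log2 differences of -0.26 ± 0.04 for Yap1, -0.50 ± 0.05 for Wwtr1 and -0.34 ± 0.03 for Tead1 (edgeR, largest adjusted p = 4.14e-06, for Yap1).

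Ctgf and Cyr61 encode secreted matricellular proteins that are among the most used readouts of YAP/TAZ activity. Ctgf (chromosome 10, 24595442 to 24598683, plus strand, Ccn2 in newer annotations) was at 1061 and 1085 CPM in wild type, 615 and 601 CPM in heterozygous and 595 and 601 CPM in knockout libraries. Cyr61 (chromosome 3, 145646976 to 145649981, minus strand, Ccn1 in newer annotations) was at 699 and 697 CPM, 536 and 519.6 CPM, and 363 and 363 CPM. Wild-type libraries were above all others for both genes, but heterozygous and knockout libraries overlapped for Ctgf and were well apart for Cyr61. Ctgf fell by 0.84 ± 0.02 on the log2 scale in knockout, or 1.79-fold (SE; edgeR, adjusted p = 6.07e-30), and by 0.82 ± 0.02 in heterozygous libraries (edgeR, adjusted p = 1.95e-29). Knockout against heterozygous left a log2 difference of -0.02 ± 0.02 for Ctgf (edgeR, adjusted p = 0.488), and this difference turned to 0.0411 with library totals as the only scaling. Cyr61 fell by 0.95 ± 0.03 in knockout, or 1.93-fold (edgeR, adjusted p = 2.29e-30), by 0.40 ± 0.03 in heterozygous libraries (edgeR, adjusted p = 2.07e-17), and by 0.54 ± 0.03 between knockout and heterozygous (edgeR, adjusted p = 2.12e-21). Of the exon bases of Ctgf 23.2% overlap Gm15270 on the opposite strand, which has no entry under that symbol in the count table.

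Ankrd1, which encodes an ankyrin-repeat protein of muscle nuclei and sarcomeres and is a further standard YAP/TAZ target (chromosome 19, 36111961 to 36120099, minus strand), went the other way. It had 180 and 205 counts in wild type, 415 and 487 in heterozygous and 555 and 569 in knockout libraries, or 5.29 and 6.03, 14.4 and 15.3, and 16.8 and 16.7 CPM. Every heterozygous and knockout library was above both wild-type libraries. Ankrd1 rose by 1.57 ± 0.13 log2 in knockout, or 2.96-fold (SE; edgeR, adjusted p = 2.67e-13), and by 1.39 ± 0.14 log2 in heterozygous libraries, or 2.62-fold (edgeR, adjusted p = 1.36e-11). The log2 difference between knockout and heterozygous, 0.17 ± 0.12, did not pass the threshold (edgeR, adjusted p = 0.292).

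Amotl2 and Lats2 encode restraints on YAP/TAZ that are themselves YAP/TAZ targets: angiomotin-like 2 holds the co-activators outside the nucleus, and LATS2 phosphorylates them. Amotl2 (chromosome 9, 102716672 to 102733418, plus strand) was at 450.4 and 437 CPM in wild type, 455 and 449 CPM in heterozygous and 345 and 356 CPM in knockout libraries. Wild-type and heterozygous libraries overlapped, and both knockout libraries lay below them. It fell by 0.34 ± 0.03 on the log2 scale in knockout against wild type (SE; edgeR, adjusted p = 5.73e-14) and by 0.37 ± 0.03 in knockout against heterozygous (edgeR, adjusted p = 7.33e-15). In heterozygous against wild type the log2 fold change was 0.03 ± 0.03 (edgeR, adjusted p = 0.458) and turned to -0.0132 with library totals as the only scaling. Lats2 (chromosome 14, 57689662 to 57758388, minus strand) was at 128 and 135 CPM in wild type, 148 and 143 CPM in heterozygous and 164 and 165 CPM in knockout libraries, an order opposite to that of Yap1 and Wwtr1. It rose by 0.32 ± 0.04 log2 in knockout (edgeR, adjusted p = 5.42e-09) and by 0.14 ± 0.04 log2 in heterozygous libraries (edgeR, adjusted p = 0.00323). The heterozygous call for Lats2 was lost without wild-type library 1 (edgeR, adjusted p = 0.0911; 0.00177 to 0.0911 over the 14 alternatives). In the annotation 42.4% of the exon bases of Lats2 also belong to the predicted gene Gm49361 on the same strand, which has no entry under that symbol in the count table.

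**Figure D2:**
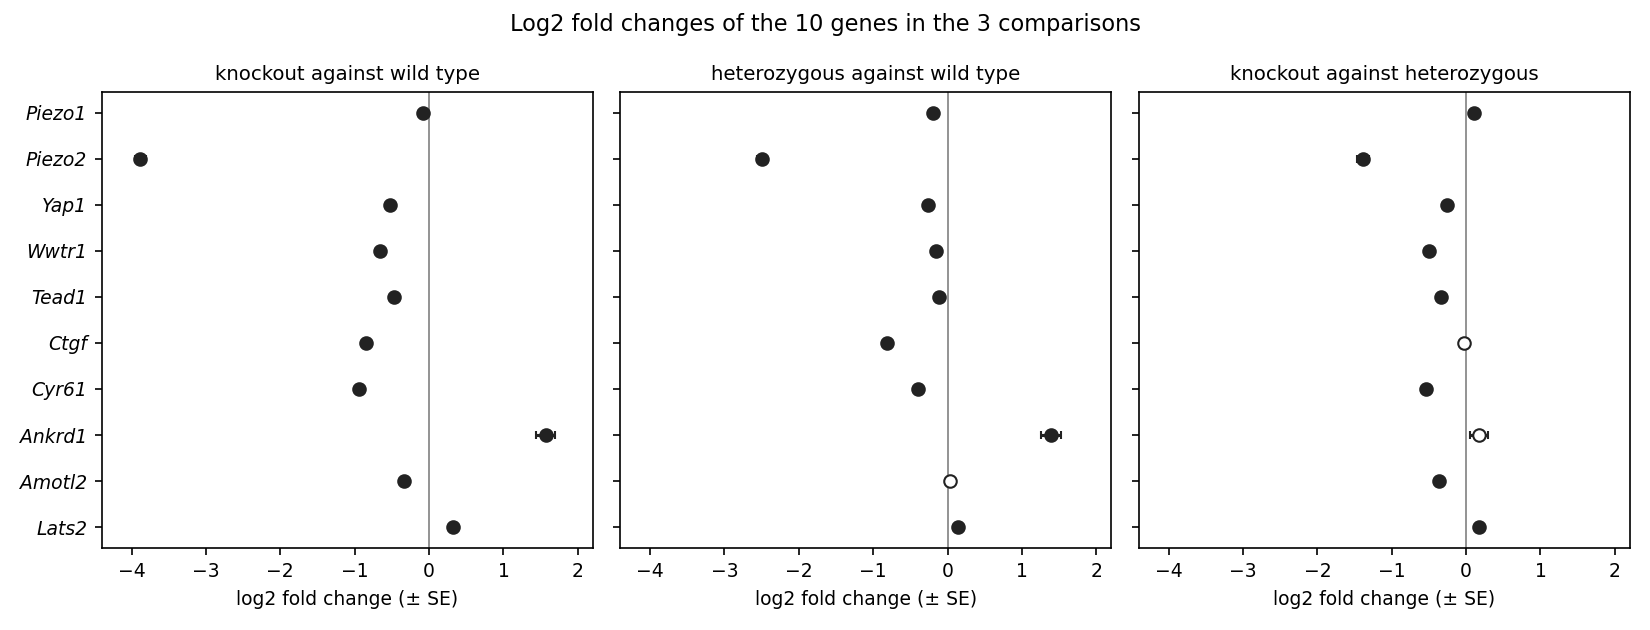
Log2 fold change (x axis) of the 10 genes in each of the 3 comparisons, with bars of 1 SE from the edgeR fit, which are often smaller than the points. Filled points have an adjusted p under 0.05 and open points do not; Piezo2 lies farthest to the left in every panel (-3.88, -2.50 and -1.39), and the open points are Amotl2 in heterozygous against wild type and Ctgf and Ankrd1 in knockout against heterozygous.

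Knockout and heterozygous libraries were also compared directly. Of the 10 genes 8 passed, 6 lower in knockout (Piezo2, Yap1, Wwtr1, Tead1, Cyr61 and Amotl2) and 2 higher (Piezo1 and Lats2), against 37.1% of all tested genes (17.9% lower, 19.1% higher) and 47.9% of the abundant genes. Higher genes made up 51.6% of all calls in this comparison, and 64.7% with library totals as the only scaling. Of the 10, Piezo2 was the 1 gene that changed at least 2-fold, against 6.29% of all genes, and also the 1 that changed at least 1.5-fold, against 11.9%. Piezo1 was higher in knockout by 0.11 ± 0.03 log2 (SE; edgeR, adjusted p = 0.000394) and Lats2 by 0.18 ± 0.04 log2 (adjusted p = 0.000347). The profiles were of 3 kinds: Piezo2, Yap1, Wwtr1, Tead1 and Cyr61 were highest in wild type, lower in heterozygous and lowest in knockout libraries and Lats2 had the reverse order, Ctgf and Ankrd1 differed from wild type in both genotypes with no difference between them past the threshold, and Amotl2 was lower in knockout than in both other genotypes. Piezo1 was of none of these kinds, being lowest in heterozygous libraries.

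Levels of different genes can be compared only per length of transcript, here as CPM per kilobase of exon (RPKM), with exon lengths from 2.02 kb for Cyr61 to 17.2 kb for Piezo2. These lengths merge all annotated exons of a gene, and which transcripts were expressed is not known here. The order of genes close in level may depend on this choice, which was not tested. In wild type Ctgf stood highest at 375 ± 5.93 RPKM and Cyr61 next at 346 ± 0.716 RPKM (SD, n = 2). Amotl2 at 70.5 ± 1.54 and Piezo1 at 61.5 ± 0.216 RPKM followed, then Wwtr1 at 24.1 ± 0.773, Tead1 at 20.7 ± 0.0621, Lats2 at 18.9 ± 0.678 and Yap1 at 15.9 ± 0.602 RPKM. Piezo2 at 8.36 ± 0.0107 RPKM and Ankrd1 at 1.96 ± 0.182 RPKM were lowest, and no neighbours in this order overlapped between libraries. In knockout the order of the top pair was unchanged, with Ctgf at 209 ± 1.56 and Cyr61 at 180 ± 0.0785 RPKM, Wwtr1 at 15.3 ± 0.216 and Tead1 at 15.03 ± 0.309 RPKM overlapped, and Piezo2 was last at 0.566 ± 0.0674 RPKM, below Ankrd1 at 5.81 ± 0.0383 RPKM. In heterozygous libraries Cyr61 at 262 ± 5.87 RPKM stood above Ctgf at 212 ± 3.45 RPKM. Piezo1 thus exceeded Piezo2 in every library, from 61.5 against 8.36 RPKM in wild type to 57.9 ± 0.974 against 0.566 ± 0.0674 RPKM in knockout.

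The other genes of the pathway did not move as a block. The Hippo kinases and their upstream regulators, which lead to phosphorylation of YAP/TAZ, had 6 of 20 members higher and 5 lower in knockout against wild type, with a median log2 fold change of -0.04. That is 55% of the list past the threshold, against 38.0% of all tested genes (19.2% higher, 18.9% lower) and 49.1% of the abundant genes, a share near the latter. This list and those below hold tested genes of any level, so they are not matched in level to the abundant genes. The kinase gene Stk4 (MST1) rose by 0.49 ± 0.05 log2 and Taok3, a kinase acting on it, by 0.37 ± 0.05 log2 (SE; edgeR, adjusted p at most 4.07e-09). The 5 that fell were the atypical cadherin Fat4 (log2 -0.52 ± 0.04), Map4k4 (-0.14 ± 0.03) and, named because they complete the count, Frmd6, Rassf1 and Wwc2. Lats1, named after its values were seen as the partner of Lats2, had a log2 fold change of 0.01 (edgeR, adjusted p = 0.922). In heterozygous against wild type 7 of 20 rose and 2, Map4k4 and Rassf1, fell, with a median of 0.05, or 45% past the threshold against 38.9% of all and 49.6% of the abundant genes. Dchs1, the cadherin ligand of Fat4, rose 3.70-fold, from 17.0 ± 0.285 to 62.9 ± 1.45 CPM (SD, n = 2; edgeR, adjusted p = 8.84e-24). Fat4 rose with it by 0.48 ± 0.04 log2, and Sav1, the scaffold of the kinases, by 0.35 ± 0.05 log2.

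Of the partners that bind YAP/TAZ or TEAD, 7 of 13 tested fell in knockout and 1, Amot, named because it completes the count, rose (median log2 -0.25). Over all tested genes 18.9% fell and 19.2% rose, and the list's 61.5% past the threshold compares with 49.1% of the abundant genes. The tight-junction scaffold Tjp1 fell by 0.997 ± 0.052 on the log2 scale, from 129 ± 0.442 to 64.6 ± 2.81 CPM (SD, n = 2; edgeR, adjusted p = 2.81e-20). The paralogs of Tead1 fell too, Tead2 by 0.67 ± 0.09 and Tead4 by 1.29 ± 0.21 on the log2 scale, and the phosphatase Ptpn14, which binds YAP, by 0.44 ± 0.04. In heterozygous libraries 7 of 13 fell and 2, Amot and Amotl1, rose (median log2 -0.17), or 69.2% past the threshold against 49.6% of the abundant genes. Tead4 fell by 1.84 ± 0.22 and Tead2 by 0.64 ± 0.09 on the log2 scale. Tjp1 fell there by 0.58 ± 0.05.

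Of other known YAP/TAZ target genes, 6 of 17 rose and 8 fell in knockout (median log2 -0.21), against 19.2% higher and 18.9% lower over all tested genes. In all 82.4% of the list passed, against 49.1% of the abundant genes. Ptpn14 counts in this list as well as among the partners. Coagulation factor III (F3) fell by 0.74 ± 0.04, Dock5, an activator of Rac, by 1.03 ± 0.05, the receptor kinase Axl by 0.43 ± 0.03 and the matrix gene Ccdc80 by 0.52 ± 0.02 on the log2 scale (SE; edgeR, adjusted p at most 5.74e-18). In heterozygous libraries 6 of 17 rose and 7 fell (median log2 0.04), or 76.5% past the threshold against 49.6% of the abundant genes. Igfbp3, which binds insulin-like growth factors, rose 7.09-fold, from 2.62 ± 0.0438 to 18.6 ± 0.583 CPM (SD, n = 2; edgeR, adjusted p = 2.25e-18), while Dock5 fell by 1.40 ± 0.05, Axl by 0.59 ± 0.03 and the growth factor Tgfb2 by 1.27 ± 0.08 on the log2 scale.

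Among other mechanosensitive channels and proteins that bind Piezo channels, 18 of 25 were tested, and 6 rose and 6 fell in knockout (median log2 -0.09). The share past the threshold was 66.7% of those tested, against 38.0% of all and 49.1% of the abundant genes. Trpv2, a cation channel, rose by 0.68 ± 0.05 log2, Stom, which encodes the membrane protein stomatin, by 0.62 ± 0.03, and Mdfic, whose product binds Piezo channels, by 0.42 ± 0.04 (SE; edgeR, adjusted p at most 1.27e-10). Mdfi, the paralog of Mdfic, named after its values were seen, fell by 0.82 ± 0.18 on the log2 scale (edgeR, adjusted p = 0.00021). The stretch-gated potassium channel Kcnk2 (TREK-1) fell by 0.96 ± 0.16 on the log2 scale (adjusted p = 3.62e-06), from 11.1 ± 0.259 to 5.67 ± 0.643 CPM (SD, n = 2). In heterozygous libraries 9 rose and 3 fell (median log2 0.16), again 66.7%, against 38.9% of all and 49.6% of the abundant genes. The osmosensitive channel Trpv4 rose by 1.02 ± 0.20 log2, from 4.91 ± 1.78 to 9.93 ± 0.317 CPM, the polycystins Pkd1 and Pkd2 by 0.20 ± 0.03 and 0.27 ± 0.03 log2, and Kcnk2 fell by 0.95 ± 0.16. The other genes that fell, Tmem63b and Tmem120a, are named because they complete the count.

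The RhoA, MRTF and SRF axis, the actin-driven route that runs beside YAP/TAZ, was the list with no member higher in knockout: 13 of 20 fell and 0 rose (median log2 -0.30). Over all tested genes 18.9% fell and 19.2% rose, and the list's 65% past the threshold compares with 49.1% of the abundant genes. Tagln fell by 1.04 ± 0.03, Acta2, which encodes smooth muscle actin, by 0.73 ± 0.02, Tpm1 by 0.58 ± 0.02 and the adhesion protein gene Vcl by 0.45 ± 0.02 on the log2 scale (SE; edgeR, adjusted p at most 3.57e-21). Srf, its co-activators Mkl1 and Mkl2, and Rhoa did not pass, with log2 fold changes of -0.11 for Srf, 0.05 for Mkl1, 0.05 for Mkl2 and -0.01 for Rhoa, named after their values were seen (edgeR, adjusted p = 0.0873, 0.423, 0.542 and 0.726). In heterozygous libraries 13 of 20 fell and 2 rose (median log2 -0.22), or 75% against 49.6% of the abundant genes, with Tagln at -0.66 ± 0.03, Acta2 at -0.50 ± 0.02 and the non-muscle myosin gene Myh9 at -0.37 ± 0.02 log2. Srf fell by 0.22 ± 0.05 and Rhoa by 0.18 ± 0.03 on the log2 scale there (edgeR, adjusted p = 0.0011 and 1.68e-07). The 2 that rose were Fhl2, by 0.82 ± 0.05 log2, and Mkl1, named because it completes the count. In knockout against heterozygous the share of tested members past the threshold lay between 46.2% (YAP/TAZ and TEAD partners) and 88.2% (other targets) over the 5 lists, against 37.1% of all and 47.9% of the abundant genes, and the medians between -0.11 and 0.0050.

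**Figure D3:**
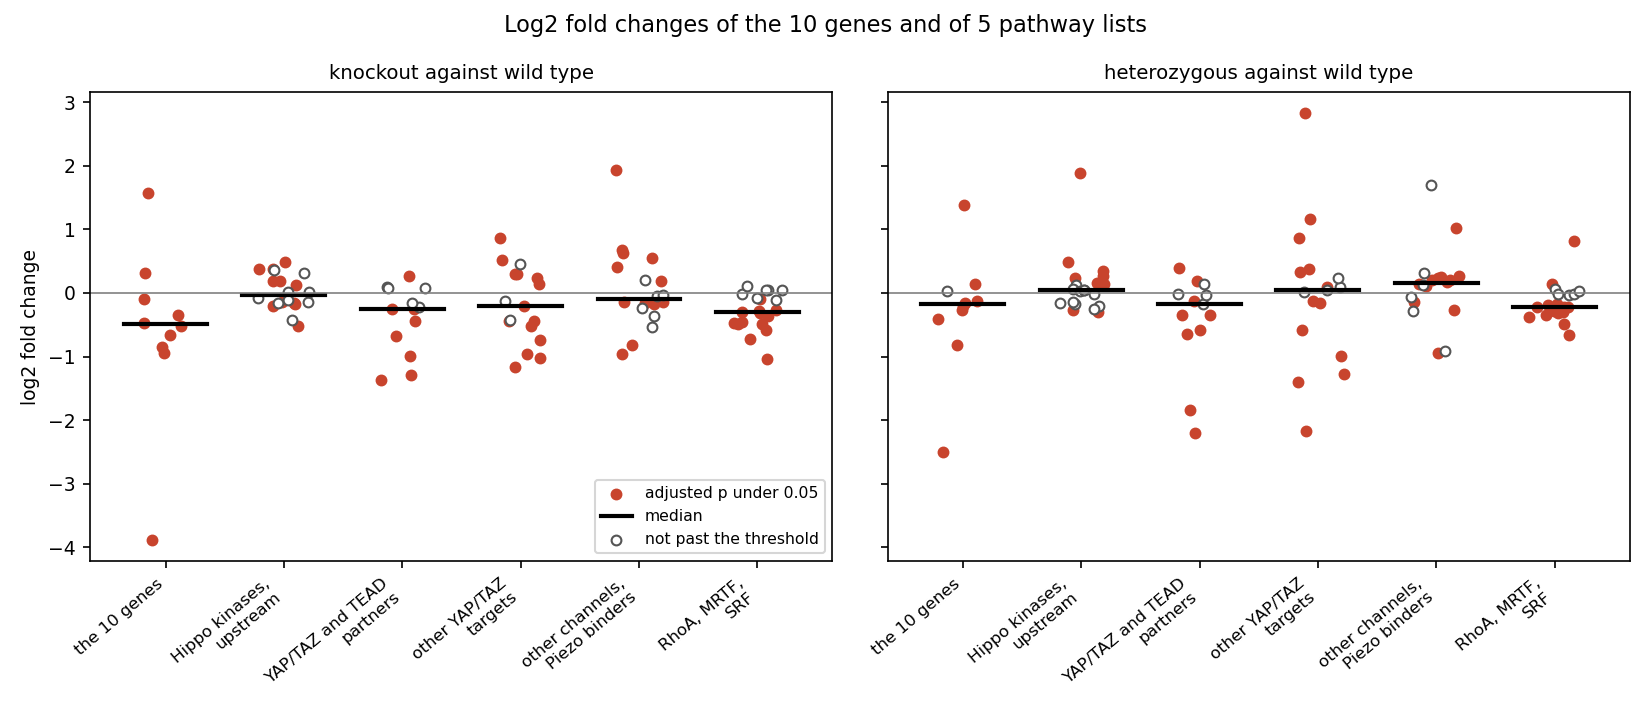
Log2 fold change (y axis) of the 10 genes and of each tested member of the 5 pathway lists (x axis), in knockout against wild type (left) and heterozygous against wild type (right). Filled points have an adjusted p under 0.05, open points do not, black bars are medians and the horizontal spread of points within a list has no meaning; in knockout no filled point of the RhoA, MRTF and SRF list lies above 0, while the other 4 lists hold filled points on both sides.

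Markers of the cells in these cultures moved as well. The counts that follow are to be read against the shares over all tested genes, 19.2% higher in each comparison with wild type and 18.9% (knockout) or 19.7% (heterozygous) lower. The summed level of 8 fibroblast markers was 22138 to 22561 CPM in wild type, 28383 to 29081 CPM in heterozygous and 13121 to 13190 CPM in knockout libraries, with 3 of 8 higher and 5 lower in knockout and 7 higher and 1 lower in heterozygous against wild type. The sum is carried by the collagen genes Col1a1, Col1a2 and Col3a1, at 10594, 6591 and 3529 CPM in wild type, and it does not describe the whole list. Pdgfra, Dcn and Lum were higher in knockout than in wild type, at 183 against 94.0 CPM, 200.5 against 114 CPM and 24.9 against 12.3 CPM. The sum was highest in heterozygous libraries. Macrophage markers summed to 13085 to 13339 CPM in wild type, 16216 to 16328 CPM in heterozygous and 15119 to 15264 CPM in knockout libraries, with 7 of 10 higher in each comparison with wild type and 0 lower in knockout and 1 lower in heterozygous. The largest part of this sum is Lyz2, at 7211, 8845 and 7025 CPM in the same order, and it does not describe the whole list. In knockout against heterozygous 7 of 10 were higher and 2 lower, against 19.1% and 17.9% of all tested genes. Csf1r was at 929, 927 and 1120 CPM and Itgam at 554, 687 and 846 CPM in wild type, heterozygous and knockout. Smooth muscle and pericyte markers summed to 653 to 657, 611 to 637 and 483 to 488 CPM in the same order, with Kcnj8 at or near 0. Of the 7 tested, 1 rose and 3 fell in knockout, and 2 rose and 1 fell in heterozygous libraries. This sum is carried by Pdgfrb and Cspg4, at 392 and 205 CPM in wild type, and does not describe the whole list. Both were lower in knockout, at 339 and 90.04 CPM, as was Notch3. Myh11 was not lower, with 723 and 773 counts in wild type and 758 and 839 in knockout, and neither were Des and Rgs5. Abcc9 was higher, with 5 and 16 counts in wild type and 56 and 71 in knockout. Arachnoid and meningeal markers summed to 521 to 528 CPM in wild type, 165 to 170.5 CPM in heterozygous and 208 to 214 CPM in knockout libraries, and 9 of 15 tested fell and 3 rose in knockout, while 10 fell and 0 rose in heterozygous libraries. The sum does not describe the whole list. In wild type, heterozygous and knockout Gjb2 was at 125, 1.62 and 10.8 CPM, Slc4a10 at 27.3, 0.359 and 0.526 CPM and Perp at 28.7, 2.16 and 2.78 CPM. Aldh1a2 was at 30.9, 34.1 and 46.9 CPM and Tbx18 at 10.4, 9.99 and 19.7 CPM in the same order. Of markers of peripheral nerve, where Piezo2 is best known, Scn9a and Nefl were at 0 in all libraries, Prph reached 0.265 CPM at most, Tubb3 stood at 9.54, 8.83 and 10.01 CPM in wild type, heterozygous and knockout, and the whole list of 9 summed to 22.9 to 23.5, 22.2 to 28.5 and 11.7 to 14.0 CPM, with 0 of 6 tested higher and 3 lower in knockout and 2 higher and 0 lower in heterozygous libraries. Ngfr, the nerve growth factor receptor gene, had 251 and 225 counts in wild type, 235 and 203 in heterozygous and 2 and 1 in knockout libraries (edgeR, adjusted p = 5.58e-19 for knockout against wild type). Sox10, a Schwann cell factor, went from 29 and 67 counts in wild type to 0 and 2 in knockout, with 104 and 85 in heterozygous libraries. Endothelial markers summed to 13.9 to 14.9, 7.46 to 7.71 and 20.5 to 21.3 CPM, with Cldn5 at 0. Of the 4 tested, 2 rose and 1 fell in knockout, and 1 rose and 2 fell in heterozygous libraries. This sum does not describe the whole list either. In wild type, heterozygous and knockout Kdr was at 7.34, 5.08 and 18.7 CPM, while Cdh5 was at 6.54, 0.733 and 0.993 CPM. The part of any of these cell types in the results was not tested.

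The genes whose profile over the 6 libraries lay nearest to that of Piezo2 were Il33, an alarm cytokine, Adam12, a metalloprotease, Ltbp4, which stores latent TGF-beta, Cx3cr1, the fractalkine receptor of macrophages, and Smoc2, a matrix protein. Nearness was the Euclidean distance between log2 CPM profiles centred on each gene's mean, over 9662 other genes (those averaging 3 log2 CPM or more, without predicted and clone names), and was 0.675 for Il33, 1.44 for Adam12, 1.67 for Ltbp4, 1.70 for Cx3cr1 and 1.88 for Smoc2. Il33 was at 238 and 223 CPM in wild type, 59.2 and 61.1 CPM in heterozygous and 22.1 and 24.6 CPM in knockout libraries, the same graded order as Piezo2. Smoc2 shared the size of the decrease but not the grading, at 4.54 and 3.62 CPM in heterozygous and 4.88 and 4.25 CPM in knockout libraries.

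Ctgf had near neighbours in profile: Phldb1, Nectin3, Tanc1 and Foxc1, at distances of 0.0920 to 0.116. Foxc1 is also in the arachnoid and meningeal list. Phldb1, which encodes a protein that anchors microtubules near adhesions, was at 210 and 216 CPM in wild type, 117 and 120.2 CPM in heterozygous and 124 and 120.3 CPM in knockout libraries. Tanc1, which encodes a synaptic scaffold protein, was at 59.3 and 58.9 CPM, 33.5 and 35.3 CPM, and 32.6 and 32.3 CPM in the same order. These genes, like Ctgf, stood about equally low in heterozygous and knockout libraries. With 6 libraries in 3 genotypes, likeness of profile rests on 3 group levels.

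**Figure D4:**
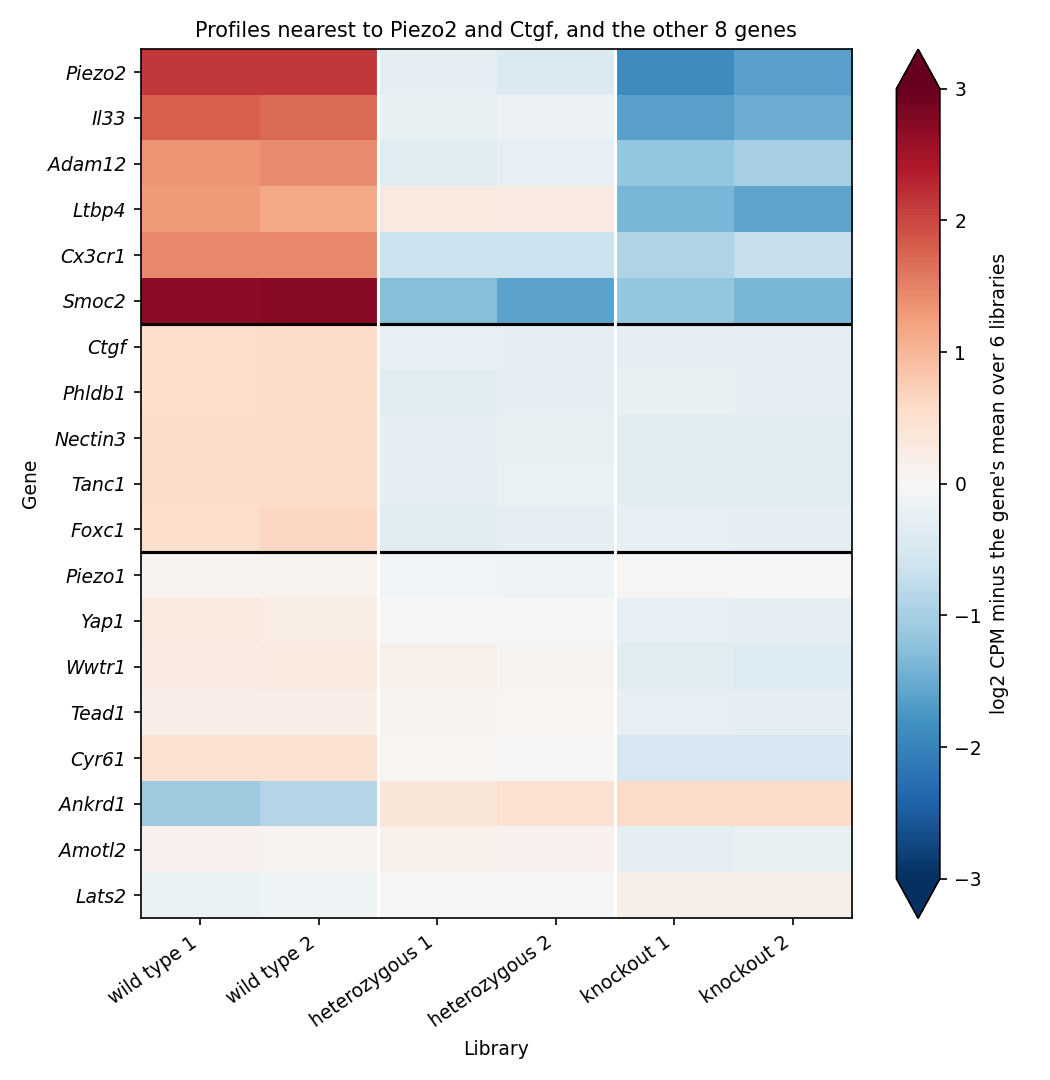
Level of each gene (rows) in each library (columns) as log2 CPM minus the gene's mean over the 6 libraries, on a colour scale from -3 (blue) to 3 (red). The top block holds Piezo2 and the 5 genes nearest to it, the middle block Ctgf and the 4 genes nearest to it, and the bottom block the other 8 genes; Il33 shares the graded order of Piezo2, and the block of Ctgf shows 1 level in wild type and another in both other genotypes.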

How the data were processed

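The authors deposited a table of raw read counts per gene symbol with 1 column per library, assigned to libraries by title. It had 0 entries that name no gene. Alignment tool HISAT2 2.0.4 and build GRCm38 come from the submitters' processing notes. How reads were counted, with which annotation and with what strand setting, is not known here. Such counts can share or split reads of overlapping genes.

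Tests used edgeR 4.0.16 in R 4.3.3. After filterByExpr by genotype at its defaults 16061 genes stayed, library sizes were scaled by TMM, and all 6 libraries entered 1 robust quasi-likelihood fit with 3 residual degrees of freedom. P-values of two-sided tests were corrected over these genes (Benjamini-Hochberg), with 0.05 as the threshold. CPM use TMM-scaled library sizes, log2 CPM a prior count of 2. The procedure was tested on simulated data with independent libraries, which cannot show whether the libraries of a genotype here are independent. Libraries of a genotype differed by more than sampling noise (mean chi-square per gene 3.62 to 3.76), and were counted as separate samples.

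Named genes were the 10 members, the 4 members of each list with the smallest p-values per comparison, the 5 nearest profiles to Piezo2 and to Ctgf, Chsy3 and the markers; some genes that this rule names are not reported here. Members and lists were chosen with earlier results of these data known. Positions and exon lengths came from GENCODE release M21, promoters from RefSeq, both on GRCm38 by symbol. Alternatives were RLE factors, library totals, DESeq2 version 1.42.0, limma-voom (limma version 3.58.1), other filters, 4 libraries only, a replicate block and each library left out.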

Additional observations from a re-analysis of the deposited data

How the results depend on the processing

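Over 14 alternatives in 3 comparisons, 414 values of the 10 genes kept direction and side of the threshold, 4 lost their call and 2 changed sign. Losing a call were Piezo1 in knockout against wild type without knockout library 2, Lats2 in heterozygous against wild type without wild-type library 1, and Wwtr1 there without wild-type library 2 or heterozygous library 2. The values that changed sign, none past the threshold, did so with library totals alone: Amotl2 in heterozygous against wild type, to -0.0132 log2, and Ctgf in knockout against heterozygous, to 0.0411 log2. The cause was not tested. Leaving out 1 library at a time gave 9 to 10 genes past the threshold in knockout against wild type, 8 to 9 in heterozygous against wild type (1 to 2 higher) and 8 in every case in knockout against heterozygous. A left-out library leaves a genotype with 1, assumed to vary like the others. With the replicate number as a block 10, 9 and 8 of the 10 genes passed in the 3 comparisons, and the count over all genes was 6080, 6222 and 5913 against 6111, 6248 and 5951 without it. Same-numbered libraries did not deviate together over all tested genes (correlations -0.0246 to 0.0222). A pairing that touches few genes would not show in these correlations. All 210 counts of list members past the threshold stayed within 1.5 times. Depth limited Ankrd1 (180 and 205 counts in wild type), whose standard errors were the largest of the 10 genes.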

Other observations

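Piezo2 and Chsy3 lie on the same chromosome of the mouse, with 3.47 Mb between them. Of 54 other tested genes within 5 Mb of Chsy3, 46.3% passed the threshold in knockout against wild type and 7.41% changed at least 2-fold with it (4 genes, Piezo2 among them), against 39.5% and 6.81% of 14769 tested genes elsewhere. In heterozygous against wild type the shares were 37.0% and 9.26%, against 40.4% and 7.08%. In knockout against heterozygous they were 51.9% and 14.8%, against 38.5% and 6.18%. This window was chosen after the position of Piezo2 was seen, and whether the nearness bears on its level was not tested.

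Fat4 and Dchs1, receptor and ligand of the same cadherin pair, were both highest in heterozygous libraries. Fat4 was at 178 ± 4.81 CPM in wild type, 249 ± 8.92 CPM in heterozygous and 125 ± 2.60 CPM in knockout libraries, and Dchs1 at 17.0 ± 0.285, 62.9 ± 1.45 and 22.2 ± 0.221 CPM (SD, n = 2). From heterozygous to knockout the log2 difference was -0.996 ± 0.037 for Fat4 and -1.502 ± 0.075 for Dchs1 (SE; edgeR, adjusted p = 4.65e-25 and 1.33e-20). The heterozygous libraries are those without Y-linked reads.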
